A study of Mus musculus with 4 samples.

Results

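MyoD peaks found in mouse myotubes labelled as kept with pyruvate, and absent from the matching list labelled without pyruvate, are described here. They were chosen by position: a distinct peak of the with-pyruvate list was taken when no peak of the without-pyruvate list overlapped it by even 1 base. The choice took 3352 of the 11907 peaks in that list, or 28.2%, and the lists together hold 31245 peaks. The absence of a peak from the without-pyruvate list is thus a selection criterion and no finding. These 3352 regions are called unpartnered peaks. The other 8555 peaks of the with-pyruvate list are called partnered, and 10783 of the 19338 without-pyruvate peaks, or 55.8%, had no partner in turn.

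MyoD is a basic helix-loop-helix transcription factor that binds DNA as a dimer with an E protein, at the E-box motif CANNTG, and among E-boxes CAGCTG is a form well known at muscle genes. It commits cells to the muscle lineage and, together with myogenin and the MEF2 factors, activates contractile, membrane and metabolic genes as myoblasts fuse into myotubes. Pyruvate is the end product of glycolysis and enters mitochondria to feed the citrate cycle.

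Binding was mapped by chromatin immunoprecipitation with the MyoD antibody SC-760 and sequencing. Myoblasts of C57BL/6 mice aged 2 weeks were grown with 20% serum, differentiated with 2% horse serum for 5 days and then held for 24 hr with pyruvate or without it. Both conditions shared strain, age, differentiation, antibody and 15 cycles of library amplification, so pyruvate was the 1 labelled difference. The series has 4 samples, a MyoD ChIP and an input for each condition, and the inputs were not analysed here. Each condition has 1 ChIP library, so differences between the lists could not be set against replicate spread, and no p-values are given. Which list is which rests on the sample titles, since the deposited files carry short codes that a reader could take for the opposite condition. ChIP data hold no expression values, so the myotube label could not be checked against marker transcripts, and binding in fewer cells cannot be told apart from less binding per cell.

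Promoter sequences are shown for muscle genes where an unpartnered peak reached into the 250 bases before the start, since these are the places where an unpartnered peak and a muscle promoter meet. The genes came from lists of sarcomere, membrane, synapse, fusion, regulator and glycolysis genes. There were 7, of which 6 are in the promoter table of RefSeq build GRCm38.p6 (Xirp1 was the other). Each line runs 5′ to 3′ on the gene's strand and ends at the base before the start, with every CANNTG match in capitals. That motif reads the same on both strands, as does CAGCTG, whose matches are also CANNTG matches.
Acta1: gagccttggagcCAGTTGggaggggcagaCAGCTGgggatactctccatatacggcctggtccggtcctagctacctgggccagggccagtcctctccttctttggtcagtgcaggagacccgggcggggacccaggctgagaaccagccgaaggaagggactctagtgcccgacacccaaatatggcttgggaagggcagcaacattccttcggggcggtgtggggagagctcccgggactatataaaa
Cacna1s: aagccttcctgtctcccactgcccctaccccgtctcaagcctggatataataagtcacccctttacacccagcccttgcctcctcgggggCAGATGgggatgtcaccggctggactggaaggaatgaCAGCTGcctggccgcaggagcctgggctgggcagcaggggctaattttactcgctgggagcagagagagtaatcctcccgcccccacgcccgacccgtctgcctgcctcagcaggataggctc
Cav3: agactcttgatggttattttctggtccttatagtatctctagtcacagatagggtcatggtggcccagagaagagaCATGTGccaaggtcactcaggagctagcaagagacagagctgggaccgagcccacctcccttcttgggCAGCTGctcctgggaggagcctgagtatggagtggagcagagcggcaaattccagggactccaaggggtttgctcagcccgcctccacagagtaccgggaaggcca
Myom3: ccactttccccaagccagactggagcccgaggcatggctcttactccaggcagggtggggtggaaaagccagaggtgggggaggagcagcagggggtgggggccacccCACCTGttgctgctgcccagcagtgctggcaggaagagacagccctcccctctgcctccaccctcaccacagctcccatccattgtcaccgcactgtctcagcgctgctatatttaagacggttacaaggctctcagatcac
Mylpf: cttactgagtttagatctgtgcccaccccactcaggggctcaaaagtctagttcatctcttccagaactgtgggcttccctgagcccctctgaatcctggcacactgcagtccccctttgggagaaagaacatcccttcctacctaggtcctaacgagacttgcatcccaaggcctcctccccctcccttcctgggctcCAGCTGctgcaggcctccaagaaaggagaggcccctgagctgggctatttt
Mef2c: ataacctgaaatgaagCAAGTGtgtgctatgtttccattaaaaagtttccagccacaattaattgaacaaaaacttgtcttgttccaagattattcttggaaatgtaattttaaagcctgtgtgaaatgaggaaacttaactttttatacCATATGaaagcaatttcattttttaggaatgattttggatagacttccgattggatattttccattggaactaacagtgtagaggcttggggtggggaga

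The Acta1 stretch (skeletal muscle alpha-actin, the thin filament protein of fibres) lies at chr8:123894776-123895025 on the minus strand of GRCm38.p6. It holds CAGTTG at position -238 and CAGCTG at -221, counting -1 as the base before the start, and the unpartnered mm9 peak chr8:126418645-126418915 covered 250 of its 250 bases. The Cacna1s stretch (the voltage sensor of excitation-contraction coupling) lies at chr1:136052561-136052810 on the plus strand, holds CAGATG at -160 and CAGCTG at -123, and was covered over 250 bases by the mm9 peak chr1:137949017-137949428. Cav3 (muscle caveolin of the surface membrane) lies at chr6:112459255-112459504 with CATGTG at -174 and CAGCTG at -106, and 170 of its bases were in a peak. Mylpf (fast skeletal regulatory myosin light chain) lies at chr7:127211358-127211607 with 1 match, CAGCTG at -51, and 77 of its bases were in a peak. Myom3 (an M-band protein that ties thick filaments together) lies at chr4:135759465-135759714 with CACCTG at -142, and Mef2c (a MADS-box partner of MyoD) at chr13:83503784-83504033 with CAAGTG at -234 and CATATG at -100. These last 2 have no CAGCTG in the printed window, and the peak covered 243 and 72 of their bases. At Mef2c the 72 bases are those next to the start, so both printed matches lie outside the peak. Promoters were matched to peaks by gene symbol and by the distance from the start given in the peak files, with no conversion between builds. The counts of covered bases, and whether a match lies in a peak, therefore assume the same start in both builds. That was not checked, and a shifted start would change them.

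Among all genes with an unpartnered peak over the 250 bases before a located start, 113 in number, 72 had a table entry, and 21 of these promoters held CAGCTG (29.2%, 95% exact binomial interval 19.1 to 41.1). The share was 36.5% (61 of 167) where the peak was partnered and 24.8% (30 of 121) for without-pyruvate peaks lacking a partner. It was 15.3% over all matched genes of either file and 12.8% over all 27025 promoters of the table. The interval for unpartnered peaks lies above the share of the whole table and includes the shares of both other peak groups. Any CANNTG was present in 72.2%, 80.8%, 66.9%, 59.8% and 66.0% of these sets in the same order. Median GC content was 62.2%, 62.0% and 58.8% in the 3 peak groups, 60.4% over all matched genes of either file and 52.0% in the whole table, and its part in the motif shares was not tested. A match describes these letters and is not a measured site. Intervals here and below cover counting error only.

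Unpartnered peaks were narrow. Their median width was 218 bases (95% interval of the median 216 to 220, quartiles 188 and 266) against 265 bases (quartiles 216 and 334) for partnered peaks of the same list. The caller's narrowest width in this list, 169 bases, was shared by 244 unpartnered and 218 partnered peaks. Widths under 200 bases made up 35.5% of unpartnered and 16.9% of partnered peaks, and widths of 500 bases or more made up 1.22% (41 peaks) and 5.17%. The without-pyruvate peaks that lack a partner had a median of 212 bases and 40.5% under 200, against 289 bases and 12.2% for partnered peaks of that list. The narrowest width in the without-pyruvate list was 144 bases, so widths in the 2 lists start from different floors. Unpartnered peaks together covered 0.801 Mb. Read depth is unknown and the fold-enrichment columns hold no usable value, so absence from a list means only that no peak was listed there.

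**Figure D1:**
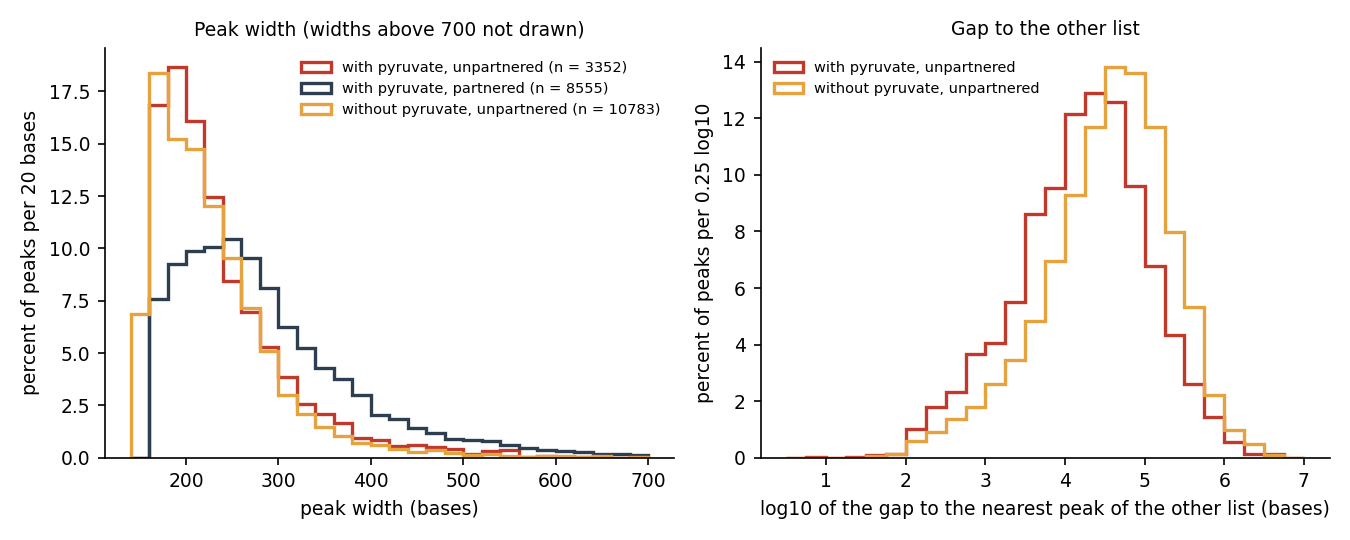
Width of MyoD peaks by group (left, share of peaks in percent against width in bases). The right panel gives, for the peaks of each list that lack a partner, the distance to the nearest peak of the other list (log axis). Unpartnered with-pyruvate peaks pile up below 250 bases with a median of 218, and partnered ones have a median of 265. The median distance of unpartnered with-pyruvate peaks is 18.8 kb.

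A gap to the other list follows from the choice, and only its size is described here. The nearest without-pyruvate peak was a median of 18.8 kb from an unpartnered peak (quartiles 4795 and 57264 bases). For without-pyruvate peaks lacking a partner, the nearest peak of the shorter with-pyruvate list was a median of 41.3 kb away. Of those, 28.8% were beyond 100 kb. For the unpartnered with-pyruvate peaks the distances were as follows. The nearest without-pyruvate peak lay within 1 kb for 304 peaks (9.07%) and between 1 and 10 kb for 930 (27.7%). It lay between 10 and 100 kb for 1583 (47.2%) and beyond 100 kb for 535 (16.0%), 27 of them beyond 1 Mb. The boundary of the choice ran between peaks of much the same layout. Just inside it, a peak of 180 bases shared by Patl2 and Spg11 (chr2:121944055-121944235) missed its neighbour by 8 bases, and others by 20, 32, 46 and 54. Just outside it, a peak of 224 bases in Arl6ip5 (chr6:97162049-97162273) had 7 bases in common with its neighbour, and others 8, 18, 19 and 28. Only 9 peaks were within 100 bases of the other list. At the far end a peak of 169 bases (chr14:113425576-113425745) was 3901397 bases from the nearest without-pyruvate peak and one of 295 bases in Ctnna2, an alpha-catenin gene, was 3729923 bases away.

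By position in genes, unpartnered peaks resembled partnered ones. A peak was called promoter-proximal when it lay within 2 kb of a located start site or in a listed 2-kb flank whose side, upstream or downstream, the files do not show. This held for 456 unpartnered peaks, or 13.6% (12.5 to 14.8), against 14.0% (13.3 to 14.7) of partnered ones. Another 1643 (49.0%) lay in the rest of a gene, 24 (0.716%) in another flank and 1229 (36.7%, 35.0 to 38.3) in no gene region, against 37.7% outside genes for partnered peaks. Without-pyruvate peaks that lack a partner were outside genes in 44.0% (43.0 to 44.9). With 1 library per condition, that value could not be set against replicate spread. Median width by position was 210 bases for proximal, 219 for other genic and 219 for intergenic unpartnered peaks.

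For 282 proximal unpartnered peaks the start site was located. The peak lay over the start in 85 (30.1%), before it in 66 (23.4%) and after it in 131 (46.5%), at a median distance of 224.5 bases. The 738 partnered peaks of this kind lay a median of 337 bases from the start and covered it in 27.9%. The without-pyruvate peaks lacking a partner lay 417.5 bases away and covered it in 22.0%. The other 174 proximal unpartnered peaks were in a flank of unknown side.

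Among the 13 gene lists with at least 12 with-pyruvate peaks, sarcomere genes had the highest share of unpartnered peaks and the lowest share of such peaks in the other list. The first rank is lost when no other-list peak may lie within 1 kb: sarcomere genes then have 32.9%, respiration genes 36.7% and protein turnover and growth genes 34.3%. Of 38 sarcomere genes in the with-pyruvate file, 25 had an unpartnered peak (65.8%), against a background of 38.1% of all genes in that file (1793 of 4704). A proximal one was found at 11 of the 38 (28.9%), against 10.9% of all genes (513), and 7 had a member but no peak in the other list at all (18.4%), against 15.3% (718). By peaks, 32 of 76 at sarcomere genes were unpartnered (42.1%, 30.9 to 54.0). In the other list 12 of 58 sarcomere peaks lacked a partner (20.7%), against 55.8% of that whole list, which includes peaks outside genes. All of the 13 lists except secreted factors (58.1%) were below 55.8%, among them respiration genes at 28.0% and fibroblast genes at 47.2%. The with-pyruvate list is the shorter one, yet it held more peaks at sarcomere genes, 76 against 58. The same was true of respiration genes (30 against 25), protein turnover and growth genes (67 against 62) and excitation and calcium genes (63 against 62). At the rest of the 13 lists it held fewer. The peaks chosen had no counterpart by construction, so these counts describe where they fell, and nothing was tested.

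The actin gene Acta1 carried 3 unpartnered peaks before or over its start, where the without-pyruvate list had none. They were 270 bases wide over the start, 284 bases at 498 bases upstream (chr8:126419149-126419433) and 590 bases at 999 bases upstream (chr8:126419650-126420240). The last is among the 10 widest of all unpartnered peaks, at percentile 98.3 of widths in the with-pyruvate list, and it also touches the regions of Gm20388 and Nup133. Beyond the gene's end a peak of 209 bases in the with-pyruvate list met one of 165 bases in the without-pyruvate list. That pair does not show whether a peak at the start could have been called in the without-pyruvate library. Actc1, the cardiac alpha-actin also used by young skeletal fibres, had 2 unpartnered peaks inside the gene, of 220 bases (chr2:113877282-113877502) and 169 bases, and no without-pyruvate peak.

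Several other filament genes had an unpartnered peak at or near the start. Myom3 had an unpartnered peak of 272 bases over its start (chr4:135315387-135315659) and one of 178 bases 1308 bases inside, while peaks 12995 and 14911 bases inside were in both lists. Lmod2, a nucleator of actin filaments, had 1 peak of 444 bases 1882 bases inside the gene (chr6:24549653-24550097) and none in the other list. The Tnnt3 (fast troponin T) peak was 434 bases wide (chr7:149685860-149686294), but a partnered peak lay 605 bases off. The Tnnc1 (slow and cardiac troponin C) peak was 322 bases wide, 996 bases from the start (chr14:32022494-32022816). Xirp1, an actin-binding protein gene, had 248 bases over its start, 325 bases from a without-pyruvate peak. In Mylpf the unpartnered peak of 187 bases covered the start, and a partnered peak of 364 bases lay 904 bases upstream. The peaks at Myh3 (embryonic myosin heavy chain, 232 bases) and Myh1 (a fast adult myosin, 176 bases) were in flanks of unknown side, and the Myh1 peak was 109 bases from the other list. Myom2 had one of 194 bases 522 bases upstream of its start.

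**Figure D2:**
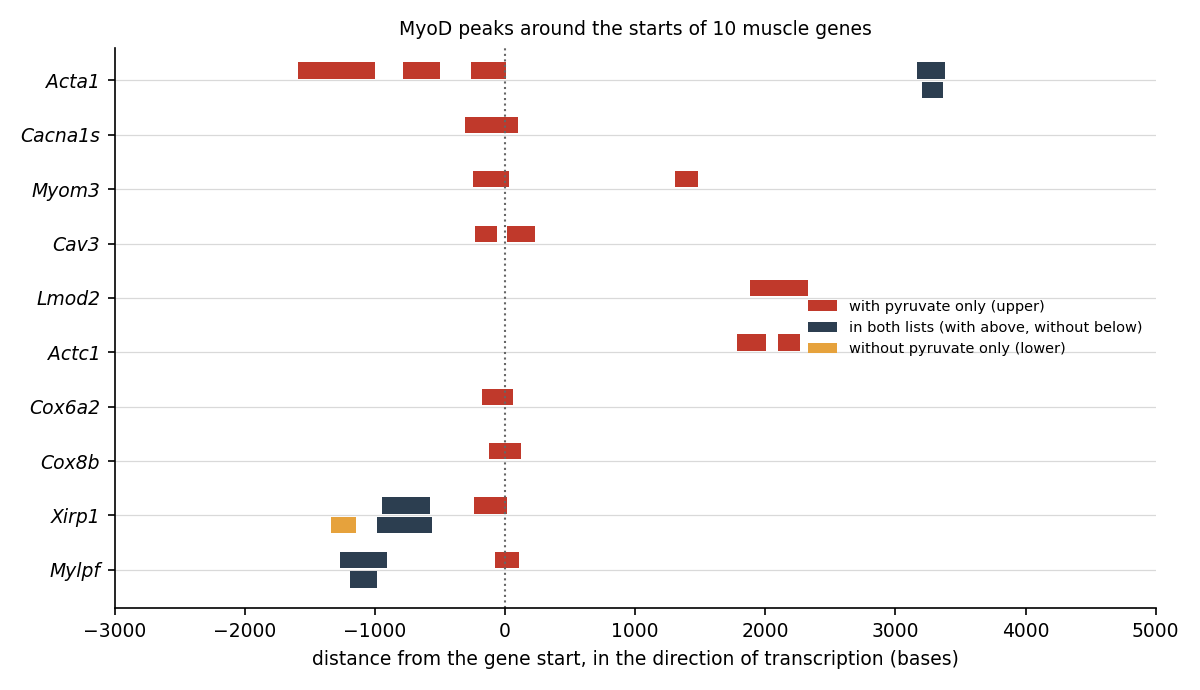
Peaks of both lists around the starts of 10 muscle genes, drawn to scale by distance from the start in bases along the direction of transcription. Red blocks are unpartnered with-pyruvate peaks, dark blocks are partnered peaks of both lists and yellow blocks are without-pyruvate peaks lacking a partner. All 10 genes have an unpartnered peak within 2 kb of the start, so red blocks near the starts follow from the choice of genes. At Lmod2 and Actc1 the red blocks lie inside the gene, 1882 and 1782 bases or more from the start. At Acta1 3 red blocks lie before or over the start, and the partnered pair lies 3168 bases or more after it.

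Of the sarcomere genes whose unpartnered peaks were all away from the start, the widest were at Mybph (myosin-binding protein H, 569 bases, chr1:136092476-136093045) and Tnni1 (slow troponin I, 366 bases, chr1:137695040-137695406). The Mybph peak was 401 bases from the other list and the Tnni1 peak 15.0 kb. Tnnt1 (slow troponin T) and Neb (nebulin, the ruler of the thin filament) had peaks of 324 and 280 bases. Both fast and slow fibre genes were therefore among the members.

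Of 29 genes of excitation and calcium handling, 14 had an unpartnered peak (48.3%) and 6 a proximal one (20.7%). A member but no peak of the other list was found at 6 (20.7%). Over all genes of the with-pyruvate file these shares were 38.1%, 10.9% and 15.3%, the background for the gene counts of the lists below as well. That background has 1.58 peaks per gene, and the lists differ from it in peaks per gene. A gene with more peaks has more chances to hold an unpartnered one. The part of peak number in the gene shares of all lists was not tested. By peaks the share at excitation and calcium genes was 33.3% (21 of 63, 21.9 to 46.3), an interval that includes the 28.2% of the whole list. Cacna1s had its unpartnered 411-base peak over the start, and a partnered peak of 575 bases, 325 bases in the other list, 13709 bases inside the gene. Cav3 had 2 unpartnered peaks on either side of its start, of 169 bases (chr6:112409263-112409432) and 217 bases (chr6:112409510-112409727), and the nearest without-pyruvate peak was 184658 bases away. Stim1, the calcium sensor of the reticulum that opens the channel Orai1, had one of 186 bases 1169 bases upstream and lay 201.1 kb from the other list. The Orai1 peak, of 262 bases in a flank of unknown side, was 693 bases from it. Bin1, which shapes the T-tubule membrane, had 3 unpartnered peaks. Kcnj11, a subunit of the ATP-sensitive potassium channel, had 206 bases in a flank of unknown side. Of the genes with peaks further inside, Kcnn3, a calcium-activated potassium channel, had 3 with a widest of 555 bases (chr3:89397423-89397978). Dysf, the membrane repair protein dysferlin, had 2.

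At the neuromuscular synapse and the membrane complex beside it, 9 of 22 genes had an unpartnered peak and 11 of 46 peaks were unpartnered (23.9%). Chrna1, the alpha subunit of the acetylcholine receptor, held the sixth widest unpartnered peak, 633 bases at chr2:73410616-73411249 and 7146 bases inside the gene. Its start was covered in both lists. Ache (acetylcholinesterase) had 210 bases 1478 bases from its start with no other-list peak, and Chrng (the embryonic receptor's gamma subunit) had 226 bases in a flank of unknown side, 744 bases from the other list. Sgcd (delta-sarcoglycan) and Dtna (dystrobrevin) had members further inside. Fusion and adhesion genes had 7 of 20 genes and 11 of 52 peaks (21.2%). Ncam1 (a cell adhesion molecule) was the 1 of these with a proximal member, and none of the 7 lacked a peak of the other list.

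At myogenic regulators 25 of 109 peaks were unpartnered (22.9%, 15.4 to 32.0), an interval that includes the 28.2% of the whole list, and 13 of 33 genes had one (39.4%, near the 38.1% of all genes). The 1 proximal case was Mef2c, with 307 bases over the start (chr13:83642961-83643268), 100.3 kb from the nearest without-pyruvate peak. A partnered peak 188 bases wide in the with-pyruvate list lay 100636 bases inside the gene. Tead4, a TEAD factor that acts with YAP-type co-activators, had 4 unpartnered peaks of 217 to 427 bases beside 2 partnered ones, at distances of 3537 to 63849 bases from the start. Rbm24 (an RNA-binding regulator of muscle splicing), Tcf4 (an E protein) and Tead1 had 1, 2 and 3. Satellite cell and Notch genes had 12 of 26 genes and 16 of 59 peaks (27.1%). Proximal members there were at Rbpj (the DNA-binding factor of Notch signalling, 256 bases), Dll1 (a Notch ligand, 224 bases), Hes1 (a Notch target, 221 bases), Mfng (a glycosyltransferase acting on Notch, 216 bases over the start) and Hey1 (a Notch target, 181 bases in a flank of unknown side). Hes1 also had a peak at its start in both lists.

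In the metabolic lists, 8 of 22 glycolysis and glycogen genes had a member (36.4%, against 38.1% of all genes). Of the 22, 6 had a member and no peak of the other list (27.3%, against 15.3% of all genes). By peaks, 11 of 35 were unpartnered (31.4%, against 28.2% of the whole list). Pgam2 (muscle phosphoglycerate mutase, 226 bases, flank of unknown side), Ugp2 (which makes UDP-glucose for glycogen, 174 bases) and Aldoa (aldolase A, 169 bases) were proximal. Gys1 (muscle glycogen synthase) had 486 bases 2701 bases inside the gene (chr7:52692915-52693401), 22.9 kb from the other list. Gapdh (the glyceraldehyde phosphate dehydrogenase of glycolysis) had 3 unpartnered peaks in and behind a gene region of only 4.6 kb, and no without-pyruvate peak. The peak inside the gene was 188 bases wide, and those downstream of it were 280 and 367 bases wide. Pfkm, the muscle phosphofructokinase, had 225 bases. For pyruvate and the citrate cycle, 2 of 9 genes and 2 of 15 peaks (13.3%, 1.66 to 40.5) were counted, an interval that includes the share of the whole list. These were Idh3a (an isocitrate dehydrogenase subunit, 178 bases in a flank of unknown side) and Me3 (a mitochondrial malic enzyme, 215 bases).

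Respiration genes and their regulators had 8 of 12 genes (66.7%, against 38.1% of all genes). By peaks, 12 of 30 were unpartnered (exact interval 22.7% to 59.4%, which includes the 28.2% of the whole list). The muscle forms of cytochrome oxidase subunits, Cox8b (244 bases, chr7:148086223-148086467) and Cox6a2 (238 bases, chr7:135349817-135350055), each had 1 unpartnered peak over the start and no other peak in either list. Ckm, muscle creatine kinase, had 190 bases in a flank of unknown side (chr7:19995205-19995395). The nuclear receptor Esrrg and the co-activator Ppargc1b, both regulators of mitochondrial genes, had 3 members each further inside. Protein turnover and growth genes had 15 of 22 genes (68.2%, against 38.1% of all genes) and 27 of 67 peaks (40.3%, 28.5 to 53.0). These 22 genes held the 67 peaks, against 1.58 peaks per gene over all genes. Proximal members were at Klhl31 (305 bases) and Kbtbd5 (237 bases), both kelch-family proteins of muscle, and both had a partnered peak nearby. Rptor, the mTOR complex subunit raptor, had 5 members, Igf1r (the receptor for insulin-like growth factors) 2, and Insr (the insulin receptor) and Fbxo32 (the atrophy ubiquitin ligase atrogin) 1 each. Of the secreted factors, 5 of 13 genes and 6 of 19 peaks were counted, with Fgf21, a hormone made by stressed muscle and liver, proximal at 275 bases in a flank of unknown side.

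**Figure D3:**
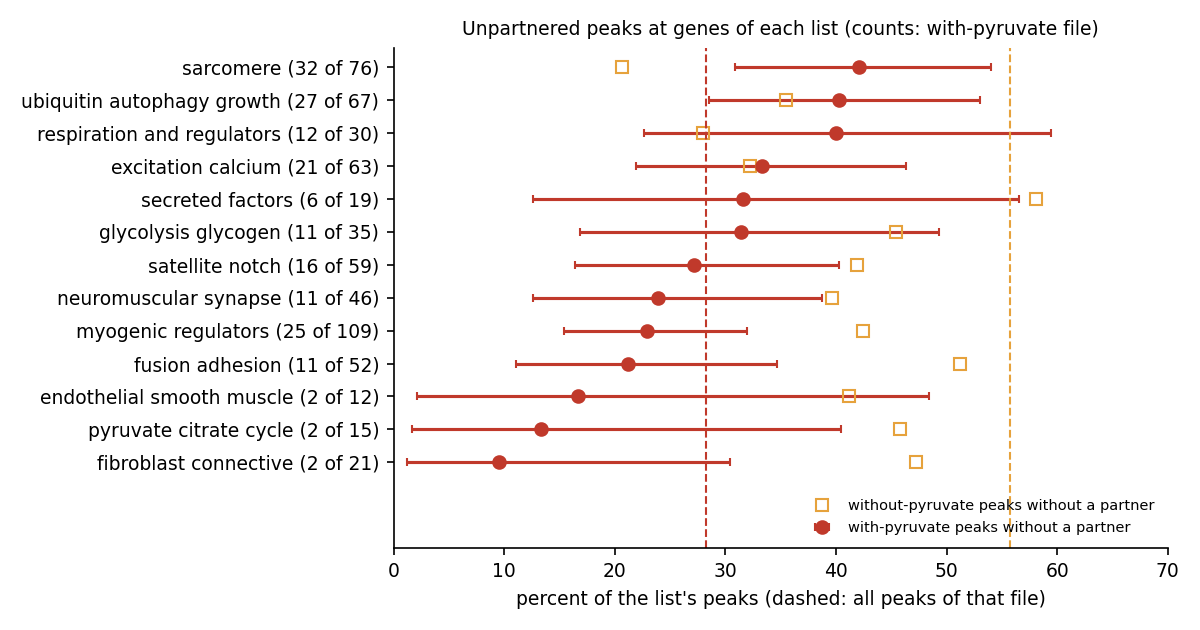
Share of peaks that are unpartnered at the genes of each list, in percent, with 95% exact intervals for the with-pyruvate list (filled circles) and values for the without-pyruvate list (open squares); dashed lines give all peaks of each list, 28.2% and 55.8%. Sarcomere genes have 42.1% in the first and 20.7% in the second.

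Lists that mark other cell types were counted in the same way. Of 29 fibroblast and connective tissue genes 10 were in the with-pyruvate file, 2 of them with a member, and 2 of 21 peaks were unpartnered (9.52%, 1.18 to 30.4), at Loxl1 (a collagen cross-linker) and Col6a1 (a collagen VI chain), none proximal. Of 20 endothelial and smooth muscle genes 9 were in the file, 1 of them with a member, the endothelial factor Erg. Of 23 blood genes 3 were in the file, 2 with a member (Itgam and Mrc1, surface proteins of macrophages), and of 24 neuronal genes 2 were, 1 with a member (Rbfox3). Of 20 liver genes 2 were in the file and both had a member, F2 (prothrombin) with 524 bases 1263 bases inside the gene and Ttr (transthyretin) with 271 bases. Of 30 ribosomal protein genes 2 were in the file, and Rpl3 had a member. Counting each gene once over the 17 lists, 127 genes had a member and 37 a proximal one. Of the 37, 26 had no proximal peak in the other list, 16 had no peak of it at all and 10 were counted through a flank of unknown side.

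Across all genes, 1793 had an unpartnered peak, 1401 of them just 1, 258 had 2 and 134 had 3 or more. A partnered peak was also present at 863. Of the 513 genes with a proximal one, 81 had a proximal without-pyruvate peak as well, 97 had a without-pyruvate peak elsewhere only and 335 had none. The 4 genes with most members had listed regions of 404.3 kb or more, and the part of region length in their counts was not tested. Gm20388 had 38 of its 98 with-pyruvate peaks unpartnered in a listed region of 4434.9 kb, and the growth factor receptor gene Fgfr2 had 10 of 27 in a region the file gives as 3009.1 kb. The zinc finger gene Hivep3 had 7 of 11 and Auts2, a gene of neural development, 7 of 14. Casz1, a zinc finger factor, had 6 of 6 unpartnered in 150.5 kb and no without-pyruvate peak. Its peaks were 191 to 302 bases wide, from 1659 to 110546 bases inside the gene. Cbfa2t3 (a co-repressor) had 5 of 8, Mical3 (an actin-oxidising enzyme) 5 of 11 and Slc25a26 (the mitochondrial carrier of S-adenosylmethionine) 5 of 6. Having members and no without-pyruvate peak was the case for 98 genes with 2 or more. Of these, Itga9 (an integrin chain) and Cacna2d3 (a calcium channel subunit) had 5 each and Prex1 and Wbscr17 4 each, chosen for naming after their values were seen.

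The widest unpartnered peak, 932 bases at chr2:180097285-180098217, lay in no gene region and 133.7 kb from the other list. Next came 695 bases at chr11:114676156-114676851, also outside genes, and 687 bases in a septin gene whose symbol the file holds as 11-Sep, altered as spreadsheets do (chr5:93565924-93566611). One of 658 bases lay by Ube2v1, a ubiquitin-conjugating enzyme variant, and Gm20431 (chr2:167431943-167432601), just 142 bases from the other list. Others were 655 bases outside genes at chr7:140353365-140354020, 611 bases in the adaptor gene Shb, 590 bases outside genes at chr5:110900994-110901584 and 582 bases in the sorting receptor gene Sorcs2. Among those over 10 kb from the other list, Anks1 (553 bases), Auts2 (548 bases) and Zbtb7c (547 bases) also ranked in the first 10. The widest unpartnered peaks were thus split between muscle genes, other genes and intergenic sequence.

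Unpartnered peaks were spread over all 20 chromosomes with peaks. They made up between 20.4% of the list's peaks on chromosome 19 (69 of 338) and 36.4% on chromosome 7 (285 of 783, 33.0 to 39.9), with a median of 27.6%. Chromosome 7 was the 1 chromosome whose interval lay above the overall share, and chromosomes 15 (20.9%, 123 of 589) and 19 were the 2 below it. High shares lay along most of chromosome 7. Of its 14 windows of 10 Mb with at least 20 with-pyruvate peaks, 12 had a share above the overall 28.2%, against 94 of 209 such windows in the genome, with a range of 15.9% to 47.9%. Chromosome 7 also had the lowest ratio of without-pyruvate to with-pyruvate peaks, 1.27, and 49.6% of its without-pyruvate peaks lacked a partner. Of the named gene lists, 18 of 127 genes with a member and 9 of 37 with a proximal member lie on it, among them Ckm, Cox8b, Cox6a2, Mylpf, Tnnt3 and Fgf21. Chromosome 7 holds 8.50% of all unpartnered peaks and 783 of the 11907 peaks of the whole with-pyruvate list. How many genes of the lists lie on it with or without a member was not counted, so these gene counts have no background. The part of the peak ratio of 1.27 in the chromosome's share of unpartnered peaks was not tested.

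**Figure D4:**
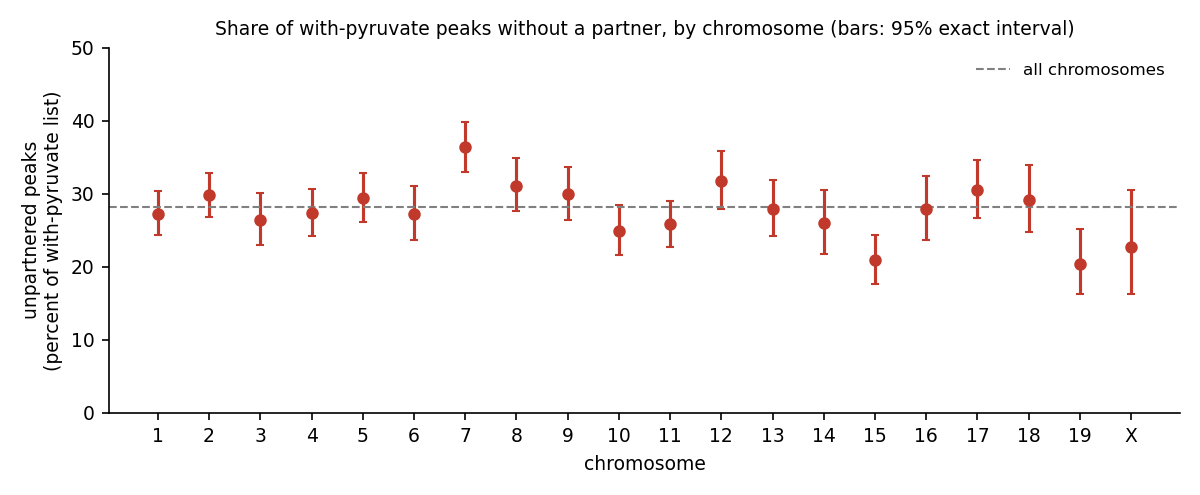
Share of with-pyruvate peaks without a partner on each chromosome, in percent, with 95% exact intervals as bars and the share over all chromosomes as a dashed line. Chromosome 7 is highest at 36.4%, and chromosomes 19 and 15 are lowest at 20.4% and 20.9%.

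Taken in order along the chromosomes, the with-pyruvate peaks formed 2161 uninterrupted runs of unpartnered peaks. Of these, 1466 were single peaks, which hold 43.7% of the unpartnered peaks, and 126 had 4 or more. The longest run had 10 peaks over 585.5 kb around Casz1 and Pex14 (chr4:147771233-148356704), with 3 without-pyruvate peaks in between. A run of 9 in 785.2 kb on chromosome 12 (chr12:27209940-27995118) touched no gene region and contained no without-pyruvate peak. A run of 8 on chromosome 2 (chr2:179991918-180256878), which includes the 932-base peak, had none either and touched Cables2, Ntsr1 and Rps21. The median distance to the nearest other peak of the same list was 16.3 kb for unpartnered and 19.3 kb for partnered peaks, and 12.0% and 10.8% had one within 1 kb.

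The deposited files attach pathway names to some genes. Of 1417 genes with such text in the with-pyruvate file, 547 had an unpartnered peak (38.6%), near the 38.1% of all genes. By peaks, 749 of 2528 at these genes were unpartnered (29.6%). Over the 94 pathways with at least 20 genes the share ran from 23.5% to 68.2% with a median of 44.6%. A gene named in several pathways counts in each. Across these pathways the share was higher where genes had more peaks (Spearman's rho 0.43 across 94 pathways that share genes), and the part of peak number was not tested.

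The first ranks went to inositol lipid pathways. Inositol phosphate metabolism had 15 of 22 genes (68.2%, 45.1 to 86.1) and 25 of 50 peaks, and the phosphatidylinositol signaling system, which contains many of the same genes, 22 of 35 (62.9%). Members included the inositol phosphatase gene Synj2 (432 bases), the phospholipase C gene Plcb4 (352), Isyna1, which makes inositol from glucose phosphate (320), and the lipid kinase gene Pip4k2a (279). The insulin signaling pathway had 30 of 54 genes (55.6%, 41.4 to 69.1), 11 with a proximal member, and 50 of 126 peaks. It included Eif4ebp1, the translation repressor controlled by mTOR, with 3 unpartnered peaks of up to 539 bases (chr8:28371549-28372088) and no without-pyruvate peak. Gys1 (486 bases), the protein kinase A subunit gene Prkar1b (480) and the exchange factor gene Rapgef1 (330) followed. Insulin signaling was rank 6 of the 94 pathways. Gastric acid secretion (17 of 29 genes), renin secretion (12 of 21) and retrograde endocannabinoid signaling (16 of 28) ranked above it. Further down, mTOR signaling (rank 17) had 24 of 45 genes and AMPK signaling (rank 22) 21 of 41. Calcium signaling had 27 of 57, MAPK signaling 41 of 91 and cardiac muscle contraction 13 of 27. At the low end were NOD-like receptor signaling with 8 of 34 (23.5%, 10.7 to 41.2), lysosome with 8 of 27, TGF-beta signaling with 7 of 23 and Wnt signaling with 12 of 36. The NOD-like receptor members included Bcl2l1, an inhibitor of apoptosis (486 bases), and Traf2, an adaptor of receptor signalling (305 bases).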

How the data were processed

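MyoD ChIP-seq peak lists of 2 libraries, 1 per condition, were used. Per the submitters' processing notes, the authors handled reads with bcl2fastq 2.19, Bowtie2 2.1.0 and MACS2 2.1.1 on mouse build mm9. Not given in the sources used here are the calling threshold, how inputs entered the calling, and which annotation named the genes. Per the file headers, each deposited row pairs a peak position with a gene region, a body or a 2000-base flank. The columns for fold enrichment hold 0 or a dash (0 rows otherwise), so position and width were the measures left, and read depth is unknown.

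Rows (13076 and 20902) were reduced to distinct peaks, taking coordinates as closed intervals. Width is end minus start. A partner shares at least 1 base. Genes were pooled by symbol. Starts came from bodies and strands in the files for 5837 of 7262 gene IDs, 44 of them placed between 2 flanks. Groups came from the sample titles. Shares carry 95% exact (Clopper-Pearson) intervals and no test was run. Overlap code was tested on simulated data, where 1800 of 1800 planted overlaps and 1200 of 1200 planted absences were found. Promoters of RefSeq GRCm38.p6 were matched by symbol, and no peak sequence was read.

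Members and the 17 gene lists (634 genes) were chosen with earlier results of these data known. Named genes are the 10 widest members, the 10 widest over 10 kb from the other list, the 8 genes with most members, up to 8 proximal and 4 other genes per list, up to 4 per pathway by width, and promoters with a member over the 250 bases before the start. Peaks nearest the overlap boundary, longest runs and other genes named outside this rule were picked after their values were seen. Alternatives changed the overlap, the start window, the flanks of unknown side, the minimum width and the length of the longer list. Tables were made in Python 3.11.15 with pandas 2.3.3 and numpy 2.4.6, intervals with scipy 1.17.1 and plots with matplotlib 3.10.9.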

Additional observations from a re-analysis of the deposited data

How the results depend on the processing

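Of 33 alternative values, 16 stayed within their error or within 1.5 times the main count and 17 moved, 8 of the 33 being settings chosen after seeing the data. With both lists limited to peaks of at least 250 bases, 2005 peaks lacked a partner, 306 genes had a proximal one, the median distance was 37881 bases, the chromosome 7 share was 41.8%, the share of pathway genes 41.3% and that of sarcomere peaks 58.0%. With the without-pyruvate list reduced to its widest peaks, as many as the other has, there were 823 proximal genes, a median distance of 29108 bases, 49.4% on chromosome 7 and 57.9% of sarcomere peaks against 41.5% of all peaks. Requiring no other-list peak within 1 kb gave 32.4% on chromosome 7, and sarcomere peaks 32.9% against 25.6% of all peaks. Windows of 1 and 10 kb moved the proximal share to 6.33% and 17.6%, and located starts alone to 8.41%; 1 kb gave 219 proximal genes and located starts 284. Proximal peaks alone gave 9.81% of pathway genes. Chromosome 7 was highest under all 6 alternatives tried for it. Lists of at least 12 peaks changed side of the share of all peaks as follows. At 250 bases or more (all peaks 33.5%), excitation and calcium genes had 31.8%, satellite cell and Notch genes 37.8% and endothelial genes 5 of 10 peaks, and protein turnover and growth genes came close at 34.3%. With the reduced list (41.5%), glycolysis genes had 14 of 35 peaks, fibroblast genes 42.9% and endothelial genes 6 of 12 peaks. No paired analysis was possible because each condition has 1 library and no test was run. Unknown depth limits every statement that a peak was absent.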
